A study of Mus musculus with 24 samples.

Results

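The genes described are 6 components of MHC class II antigen presentation, H2-Aa, H2-Ab1, H2-Eb1, Cd74, Ciita and H2-DMa, taken by symbol from the 17811 genes of a mouse count table. All 6 were present, and all 6 were among the 9328 genes that passed a filter on low counts. The libraries came from the jejunum of 4 male C57BL/6 mice of 10 weeks on regular chow. No genotype or treatment set groups apart. Epithelial cells carrying stains against CD73 and CD26 went through flow cytometry into 6 villus zones, V1 (most bottom), V2 (bottom), V3 (bottom-middle), V4 (middle), V5 (middle-tip) and V6 (tip), and polyadenylated RNA was sequenced by mcSCRB-seq, a bulk method that reads transcript ends and counts each molecule once by its unique molecular identifier (UMI). Each mouse gave 1 library per zone, which made 4 libraries per zone and 24 in all. A zone is a pool of cells of several types, so fewer cells of a type and less RNA per cell cannot be told apart.

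MHC class II molecules display peptides from the endosomal route to CD4 T cells. H2-Aa and H2-Ab1 encode the alpha and beta chains of the I-A molecule, H2-Eb1 encodes the beta chain of I-E, Cd74 encodes the invariant chain that chaperones the chains to the endosome, and H2-DMa encodes a chain of the H2-DM complex that loads the peptide. C57BL/6 mice carry the b haplotype, in which the alpha chain of I-E is not made. Ciita is the transactivator of the class II genes; it binds no DNA itself and acts through factors such as RFX and NF-Y that sit on the X and Y boxes of class II promoters. Besides dendritic cells, macrophages and B cells, enterocytes of the small intestine are known to make class II molecules, a trait that interferon gamma increases.

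H2-Aa, H2-Ab1, H2-Eb1 and H2-DMa lie together on chromosome 17 and Ciita lies on chromosome 16. On GRCm38 with the GENCODE M21 annotation, H2-Ab1 spans chr17:34257689-34269419 on the plus strand, H2-Aa chr17:34282744-34287823 on the minus strand, H2-Eb1 chr17:34305867-34316674 on the plus strand, H2-DMa chr17:34119541-34139101 on the plus strand and Ciita chr16:10480059-10528418 on the plus strand. Promoter windows from 250 bases before to 50 bases after the annotated start were matched for 3 of the 6 genes (RefSeq, GRCm38.p6). The windows of H2-Aa (chr17:34287774-34288073, minus strand) and H2-Eb1 (chr17:34305617-34305916, plus strand) are shown because both genes moved together along the villus and both windows hold the 2 class II boxes. Capitals mark the X box core, searched as GCAAC, and the Y box, searched as CTGATTGG, which holds an inverted CCAAT. Both motifs were searched on both strands, and neither contains the other.
H2-Aa promoter: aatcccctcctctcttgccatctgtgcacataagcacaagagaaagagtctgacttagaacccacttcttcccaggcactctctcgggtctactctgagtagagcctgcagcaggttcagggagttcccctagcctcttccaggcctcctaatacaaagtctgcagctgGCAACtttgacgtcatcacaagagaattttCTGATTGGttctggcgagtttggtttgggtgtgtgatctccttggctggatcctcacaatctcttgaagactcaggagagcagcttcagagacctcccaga
H2-Eb1 promoter: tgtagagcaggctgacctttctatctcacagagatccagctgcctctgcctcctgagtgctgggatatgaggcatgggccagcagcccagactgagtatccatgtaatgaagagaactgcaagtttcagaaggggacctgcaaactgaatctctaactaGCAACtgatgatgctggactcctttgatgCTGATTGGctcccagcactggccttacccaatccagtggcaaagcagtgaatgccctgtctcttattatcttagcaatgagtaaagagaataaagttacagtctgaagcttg
The X box core stood 25 bases before the Y box in H2-Aa and 24 bases before it in H2-Eb1, and the Y box began 51 and 62 bases before the start. Of all 32851 mouse promoter windows of the same length, 35.2% held the X box core, 4.1% the Y box and 0.292% both in the gene's direction with the X box core first. Neither of the 2 windows of H2-DMa held the pair. These windows (chr17:34122582-34122881 and chr17:34125268-34125567) lie inside the gene's span and do not cover its GENCODE start. Other starts of H2-DMa were not searched. Among the 21 other class II pathway genes with a window, H2-Oa and H2-Eb2 held the pair, with 25 and 24 bases between the boxes. Both are absent from the count table, so their levels were not measured here.

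Library totals ranged from 806541 to 2266261 UMIs, and the lowest was V4 of mouse 4. The 6 genes together took 0.159% ± 0.0381 (V1), 0.344% ± 0.128 (V4) and 0.278% ± 0.0667 (V6) of all UMIs (SD, n = 4). The genes of the sorted proteins had slopes of 1.56 ± 0.11 log2 per zone for Nt5e (CD73, adjusted p = 1.1e-09) and 0.27 ± 0.03 for Dpp4 (CD26, adjusted p = 1.5e-07). The sort used stains against both proteins, so these slopes are not an independent check of the zones. Over V3 to V6 Dpp4 did not rise (-0.040 ± 0.039 with the mouse as a block, adjusted p = 0.646). Levels below are CPM, the UMI count of a gene divided by its library's TMM-normalised total. Slopes and differences are log2 values ± SE from edgeR's quasi-likelihood test over all 24 libraries, with Benjamini-Hochberg adjusted p over the 9328 genes and a threshold of 0.05. A second fit added the mouse as a block, since the 6 zones of a mouse came from the same animal.

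Along the villus, 4 of the 6 genes rose from bottom to tip, H2-Aa, H2-Ab1, H2-Eb1 and Cd74, where 22.1% of all genes tested were called higher and 22.8% lower. With the mouse as a block the same 4 were called, where 27.6% were called higher and 27.8% lower. H2-DMa and Ciita passed the test in neither direction. The median slope of the 6 genes was 0.16 log2 per zone, against a median of -0.0047 over all genes tested. The increase lay in the lower zones: the means of H2-Aa, H2-Ab1, H2-Eb1, Cd74 and H2-DMa were highest in V4. That peak was not shared by all mice. Mouse 1 was highest in V5 for H2-Aa and Cd74, V6 for H2-Ab1, V3 for H2-Eb1 and V1 for H2-DMa. Mice 2, 3 and 4 were highest in V4, except mouse 2 for H2-Eb1 (V5).

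H2-Aa had the steepest slope of the 6. In V1 its level was 93.3, 194, 129 and 251 CPM in mice 1 to 4, and in V2 it was 177, 302, 227 and 529 CPM. V3 held 265, 455, 436 and 829 CPM of H2-Aa in the same order of mice, and V4 held 313, 622, 642 and 1097 CPM. The upper zones held 363, 432, 590 and 716 CPM in V5 and 305, 506, 504 and 777 CPM in V6. Every library of V4 and every library of V6 lay above every library of V1, as they did in 16.2% (V4) and 17.9% (V6) of the genes tested, while V4, V5 and V6 overlapped. The zone means were 167 ± 70.2 (V1), 669 ± 323 (V4) and 523 ± 194 CPM (V6; SD, n = 4). H2-Aa rose with a slope of 0.31 ± 0.071 log2 per zone (adjusted p = 0.0013), and V6 exceeded V1 by 1.65 ± 0.42 log2 (adjusted p = 0.0043), in 4 of 4 mice. That difference missed the threshold without mouse 3 (adjusted p = 0.0525), and its adjusted p was 3.2e-12 with the mouse as a block.

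H2-Ab1, the partner chain, followed the same course. In V1 it had 291, 441, 395 and 620 CPM in mice 1 to 4, and in V2 512, 585, 830 and 1103 CPM. V3 held 741, 872, 1277 and 1716 CPM of H2-Ab1, and V4 held 766, 1134, 1545 and 2383 CPM. In V5 the values were 881, 1055, 1519 and 1570 CPM, and in V6 942, 887, 1422 and 1626 CPM. As for H2-Aa, all libraries of V4 and of V6 lay above all of V1. Means were 437 ± 137 (V1), 1457 ± 694 (V4) and 1219 ± 363 CPM (V6; SD, n = 4). The slope was 0.28 ± 0.057 log2 per zone (adjusted p = 3.98e-04), and V6 exceeded V1 by 1.48 ± 0.34 log2 (adjusted p = 0.00168) in 4 of 4 mice. In that comparison H2-Aa, H2-Ab1, H2-Eb1 and Cd74 were called higher, 4 of 6, where 20.2% of all genes were (26.7% with the block), and V6 was above V1 in 4 of 4 mice for the same 4 genes and for 28.1% of all genes.

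H2-Eb1, the beta chain of I-E, rose less. In mice 1 to 4 it had 102, 171, 150 and 240 CPM in V1 and 194, 202, 262 and 403 CPM in V2. Its level in V3 was 242, 296, 376 and 597 CPM, and in V4 it was 207, 344, 419 and 698 CPM. V5 held 207, 356, 367 and 465 CPM and V6 held 225, 258, 371 and 424 CPM of H2-Eb1. Within each mouse V6 was above V1, but the zones overlapped, because V1 of mouse 4 was above V4 and V6 of mouse 1. The slope was 0.17 ± 0.060 log2 per zone (adjusted p = 0.0235; 2.1e-08 with the block), and V6 exceeded V1 by 0.95 ± 0.36 log2 (adjusted p = 0.0400). The slope missed the threshold without mouse 2 (adjusted p = 0.0967), without mouse 3 (0.169), without V1 of mouse 1 (0.0638), without V6 of mouse 3 (0.0514) and without V6 of mouse 4 (0.0623), as it did with no filter on low counts (0.0531) and with scaling by total UMIs (0.120). The difference between V6 and V1 also missed it without mouse 2 (adjusted p = 0.116) and without mouse 3 (0.222).

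Cd74, the invariant chain, rose as well, and its order of mice differed from that of the chain genes. In V1 it had 597, 702, 311 and 525 CPM in mice 1 to 4, and in V2 466, 950, 493 and 757 CPM. V3 held 641, 1130, 645 and 1028 CPM of Cd74, and V4 held 711, 1620, 961 and 1167 CPM. In V5 the values were 785, 889, 841 and 827 CPM, and in V6 706, 1448, 648 and 824 CPM. All libraries of V4 lay above all of V1, the libraries of V6 and V1 overlapped, and mouse 2 was the highest in every zone. The mean moved from 534 ± 165 (V1) to 1115 ± 385 (V4) and 906 ± 369 CPM (V6; SD, n = 4). The slope was 0.15 ± 0.050 log2 per zone (adjusted p = 0.0186; 3.4e-05 with the block), and it missed the threshold without mouse 3 (adjusted p = 0.0670), without mouse 4 (0.0633), without V6 of mouse 2 (0.0881), without V1 of mouse 3 (0.0546) and with scaling by total UMIs (0.222). V6 exceeded V1 by 0.76 ± 0.29 log2 (adjusted p = 0.0424; 4.4e-04 with the block), a call that was lost without any 1 of the 4 mice, with adjusted p between 0.0623 and 0.129. It was also lost with DESeq2 size factors (adjusted p = 0.0519) and among genes of at least 50 CPM (0.0907).

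H2-DMa, a chain of the peptide-loading complex, had nearly the same level at both ends of the villus. In V1 it had 88.5, 76.6, 71.8 and 107 CPM in mice 1 to 4, and in V2 84.9, 90.9, 96.8 and 139 CPM. V3 held 88.4, 119, 107 and 156 CPM of H2-DMa, and V4 held 87.6, 127, 113 and 158 CPM. In V5 the values were 88.1, 115, 92.5 and 109 CPM, and in V6 70.6, 73.1, 86.3 and 101 CPM. Mice 2, 3 and 4 had their highest value in V4, mouse 1 stayed between 84.9 and 88.5 CPM from V1 to V5, and all zones overlapped. V6 minus V1 was -0.05 ± 0.20 log2 (adjusted p = 0.850), with V6 higher in 1 of 4 mice. The H2-DMa gene overlaps Brd2, which lies on the opposite strand and had 2464 UMIs; the counting's strand setting is not stated by the sources at hand, so reads of the overlap could not be assigned with certainty.

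Ciita transcripts were scarce, with 130 UMIs over the 24 libraries. In V1 the counts were 2, 7, 4 and 3 UMIs in mice 1 to 4, in V2 6, 1, 3 and 13 UMIs, and in V3 4, 3, 10 and 12 UMIs. V4 held 1, 2, 7 and 2 UMIs, V5 4, 4, 12 and 10 UMIs, and V6 2, 1, 8 and 9 UMIs. Mice 3 and 4 had 44 and 49 of these UMIs and mice 1 and 2 had 19 and 18, while no zone stood apart. The mean level was 2.33 ± 1.26 (V1) and 3.39 ± 2.74 CPM (V6; SD, n = 4), and the slope 0.11 ± 0.12 log2 per zone (adjusted p = 0.492). The change that such counts could show was not measured. Ciita overlaps Dexi on the opposite strand, with 295 UMIs, and the same limit on strand holds.

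**Figure D1:**
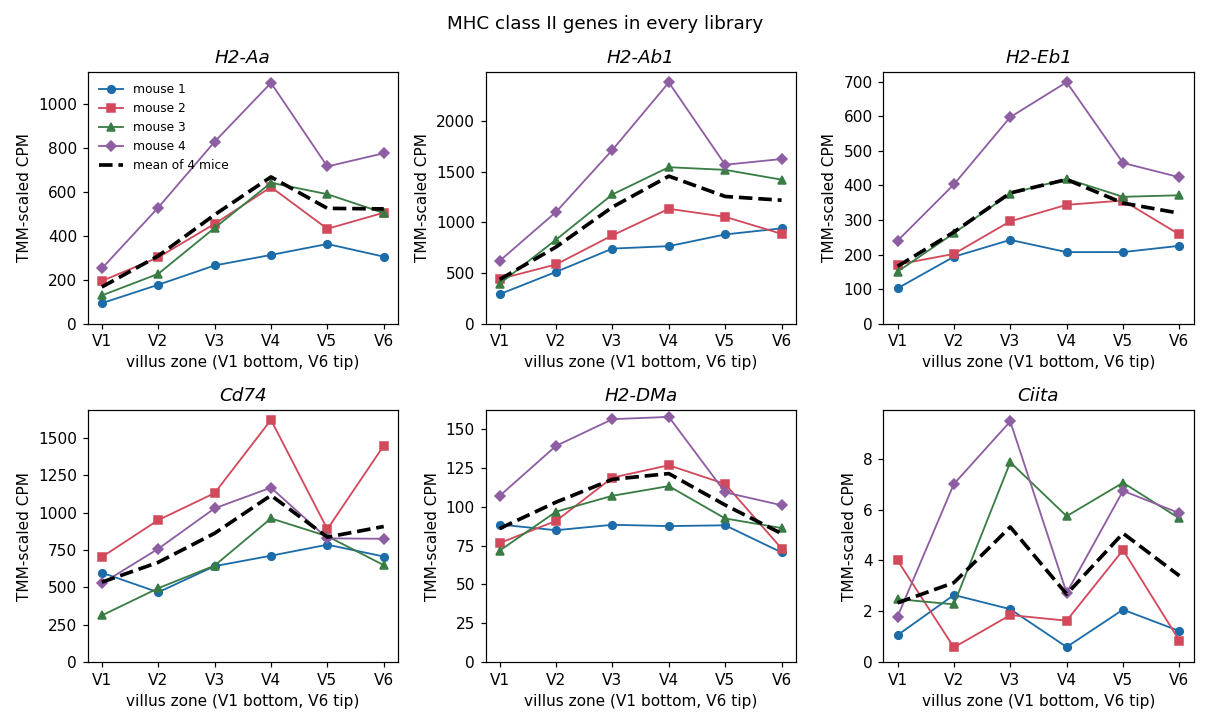
TMM-scaled CPM (linear axis from 0) of the 6 genes against villus zone, 1 panel per gene, with 1 line per mouse and a dashed line for the mean of 4 mice. Mouse 4 is the highest line in every zone for H2-Aa, H2-Ab1 and H2-Eb1, mouse 2 is the highest for Cd74, and the mean of 5 genes peaks in V4, while Ciita stays between 0.572 and 9.48 CPM.

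The curvature over zones, a quadratic term that is negative where the middle is highest, was negative in all 6 genes. It was called for H2-Ab1 (adjusted p = 0.0387) and H2-DMa (adjusted p = 0.0339), 2 of 6, where 4.57% of all genes were called in that direction. Both calls were lost without mouse 2 (adjusted p = 0.120 and 0.193), mouse 3 (0.222 and 0.148) or mouse 4 (0.0895 and 0.0625). With the mouse as a block the same term was called for 5 of 6, all but Ciita, where 12.3% of all genes were called. The adjusted p in that fit was 8.7e-09 for H2-Aa, 1.2e-07 for H2-Ab1, 2.5e-07 for H2-Eb1, 0.0040 for Cd74 and 1.4e-04 for H2-DMa.

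Between neighbouring zones, none of the 6 genes passed the test without the block, where 1.51% of all genes were called from V1 to V2, 0.289% from V2 to V3, 0.0643% from V3 to V4, 0% from V4 to V5 and 0.268% from V5 to V6. With the block, 3 genes rose over the first steps. From V1 to V2, where 9.2% of all genes were called higher, H2-Aa rose by 0.86 ± 0.14 log2 (adjusted p = 3.0e-05), H2-Ab1 by 0.77 ± 0.13 (8.2e-05) and H2-Eb1 by 0.68 ± 0.13 (4.0e-04). From V2 to V3, where 3% of all genes were called higher, H2-Aa rose by 0.68 ± 0.13 log2 (adjusted p = 0.0013), H2-Ab1 by 0.59 ± 0.13 (0.0035) and H2-Eb1 by 0.49 ± 0.13 (0.0171). With the block, no gene of the 6 passed the test from V3 to V4, from V4 to V5 or from V5 to V6, where 2.12%, 0% and 1.5% of all genes were called. The order of the 3 chain genes was therefore V1 below V2 below V3, with V3, V4, V5 and V6 not told apart from their neighbours. The nearest to the threshold of the later steps was H2-Aa from V3 to V4, at 0.42 ± 0.13 log2 (adjusted p = 0.0865), higher in 4 of 4 mice.

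Slopes over the lower and the upper zones were fitted apart, with the mouse as a block. Over V1 to V4, a range chosen after the values had been seen, 5 genes rose, where 26.4% of all genes did: H2-Aa by 0.66 ± 0.037 log2 per zone (adjusted p = 1.9e-14), H2-Ab1 by 0.56 ± 0.038 (6.2e-13), H2-Eb1 by 0.43 ± 0.038 (2.4e-10), Cd74 by 0.35 ± 0.051 (1.1e-05) and H2-DMa by 0.16 ± 0.039 (0.00116). Ciita did not pass the filter in that range. Over V3 to V6, H2-DMa fell by 0.17 ± 0.039 log2 per zone (adjusted p = 0.00325), where 0.868% of all genes were called lower. The other 4 had slopes between -0.081 and 0.020 over V3 to V6, with adjusted p from 0.263 to 0.949. Both slopes share V3 and V4, and their difference was not tested. Without the block, the calls over all zones rested on V1. Over V2 to V6 in that fit none of the 6 genes was called, where 1118 genes were called in either direction. H2-Aa had 0.16 ± 0.091 log2 per zone there (adjusted p = 0.254). With the block, 2703 genes were called over V2 to V6 in either direction. H2-Aa, H2-Ab1 and Cd74 were then called higher (adjusted p = 8.97e-06, 9.2e-06 and 0.0213) and H2-Eb1 was not called (0.185). In the same fit with the block, H2-DMa fell by 0.080 ± 0.027 log2 per zone (adjusted p = 0.0222). The shares of all genes called higher and lower over V2 to V6 are not given.

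**Figure D2:**
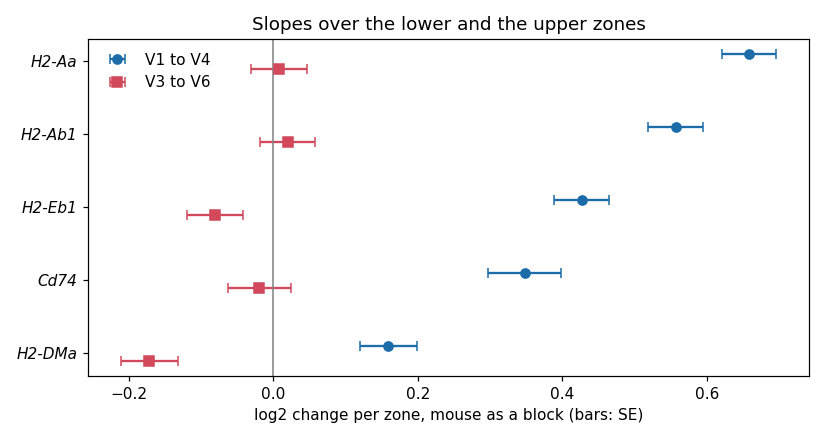
Slopes in log2 change per zone ± SE, mouse as a block, of 5 class II genes over V1 to V4 (circles) and V3 to V6 (squares), with a vertical line at 0. The lower-zone slopes run from 0.16 (H2-DMa) to 0.66 (H2-Aa), and the upper-zone slopes lie near 0 except that of H2-DMa at -0.17.

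Mice differed as well as zones. Mouse 4 had the highest level of H2-Aa, H2-Ab1 and H2-Eb1 in 6 of 6 zones, and mouse 1 the lowest in 6, 5 and 6 of the zones. Zone took 60.3% of the variance of log2 CPM of H2-Aa and mouse 36.3%, with 3.45% left over. For H2-Eb1, zone took 45.1% and mouse 49.4%, and for Cd74 43.2% and 39.9%, with 16.9% left over. The fold from V1 to V4 within a mouse was 3.36, 3.20, 4.99 and 4.36 for H2-Aa in mice 1 to 4, and 1.19, 2.31, 3.09 and 2.22 for Cd74. V4 was above V1 in 4 of 4 mice for H2-Aa, H2-Ab1, H2-Eb1 and Cd74, 4 of the 6 genes, where 27.9% of all genes were. The highest value of each of the 3 chain genes was in V4 of mouse 4, the library with the fewest UMIs, and without that library the slopes were 0.30 log2 per zone for H2-Aa (adjusted p = 0.00124), 0.28 for H2-Ab1 (2.8e-04), 0.16 for H2-Eb1 (0.0208) and 0.15 for Cd74 (0.0221). The index column of the sample sheet, read here as a library pool, nearly coincided with the mouse (pool 1 held mouse 1 and V1 of mouse 2), so mouse and pool cannot be told apart.

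The 3 chain genes moved together within these libraries. Over the 24 libraries, which share mice and zones, Pearson's r of log2 CPM was 0.955 between H2-Aa and H2-Ab1, 0.956 between H2-Ab1 and H2-Eb1 and 0.938 between H2-Aa and H2-Eb1. After the zone means were taken away, it was 0.886, 0.968 and 0.918 for the same pairs, so libraries of the same zone that were high in 1 chain gene were high in the others. For Cd74 the corresponding values were lower, 0.718 with H2-Aa, 0.545 with H2-Ab1 and 0.519 with H2-Eb1, and 0.463, 0.0913 and 0.181 after the zone means were taken away. The pattern within zones was not particular to the chain genes. With H2-Aa, H2-Ab1 and H2-Eb1, after the zone means were taken away, H2-DMa had 0.822, 0.7805 and 0.835. Ciita, with few counts, had 0.621, 0.778 and 0.759 with the same 3 genes. Near-identical H2 genes can share reads, so how the counting treated such reads bears on these values; the treatment is not stated by the sources at hand.

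Ratios between some of the genes differed between bottom and tip. The 3 ratios given here were chosen after their values had been seen, out of 10 ratios among the 5 genes other than Ciita. They share genes and follow from the levels given above. In 5 of the 10 ratios every V6 library lay above every V1 library, and in 0 every V6 library lay below. The ratio of H2-Ab1 to H2-Eb1 counts was 2.85, 2.58, 2.63 and 2.59 in V1 of mice 1 to 4 and 4.18, 3.44, 3.83 and 3.84 in V6, with V4 between at 3.53 ± 0.202 (SD, n = 4). It is the change of this ratio, not its size, that compares the genes, and it was higher in V6 in 4 of 4 mice. The ratio of H2-Aa to H2-DMa moved from 1.93 ± 0.666 in V1 to 6.20 ± 1.46 in V6, with a highest value of 2.54 in V1 and a lowest of 4.33 in V6. The ratio of H2-Aa to Cd74 was 0.331 ± 0.144 in V1 and 0.626 ± 0.281 in V6, higher in 4 of 4 mice but overlapping between the zones.

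**Figure D3:**
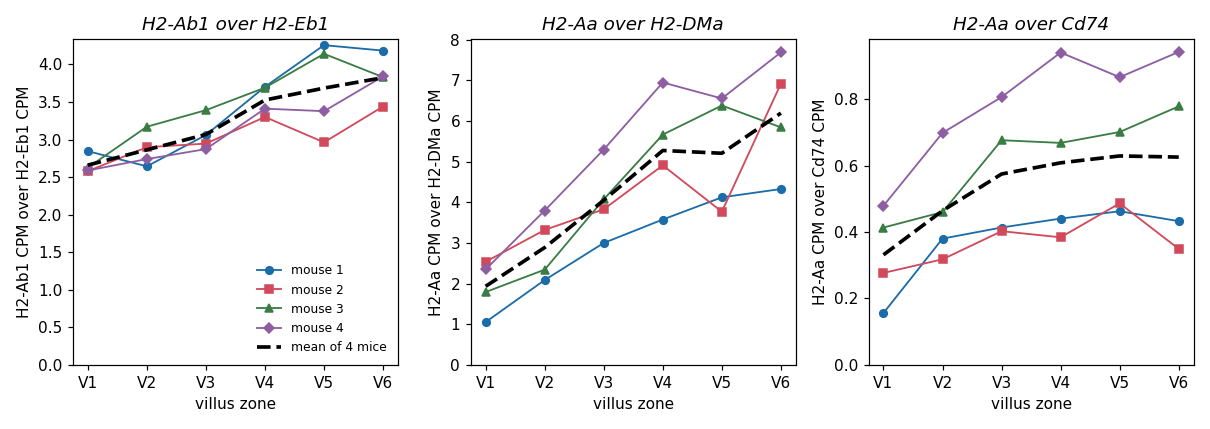
Ratios of CPM between gene pairs (linear axes from 0) against villus zone, with 1 line per mouse and a dashed line for the mean of 4 mice. H2-Ab1 over H2-Eb1 and H2-Aa over H2-DMa end above every V1 value in all 4 mice, and in H2-Aa over Cd74 mice 3 and 4 lie above mice 1 and 2 in every zone.

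The other class II pathway genes went in both directions. Of 29 symbols listed, 19 had counts here and 15 were tested. Of these, 4 rose, 1 fell and 10 did not pass the test, where 22.1% of all genes rose and 22.8% fell. The median slope was 0.034 log2 per zone against -0.0047 over all genes. With the block, 6 rose and 1 fell, where 27.6% of all genes rose and 27.8% fell. Of the proteases that trim the invariant chain, Ctss (cathepsin S) rose by 0.19 ± 0.052 log2 per zone (adjusted p = 0.0058), from 78.0 ± 32.2 (V1) to 184 ± 70.3 (V4) and 157 ± 42.0 CPM (V6; SD, n = 4). Ctsl (cathepsin L) rose by 0.24 ± 0.056 log2 per zone (adjusted p = 0.0012). Ctsh (cathepsin H), another lysosomal protease, fell by 0.14 ± 0.046 (adjusted p = 0.0159). Ctsb (cathepsin B), with the most counts of the list, had a slope of 0.034 ± 0.018 (adjusted p = 0.132). Of the regulators, Rfxank, a subunit of RFX, rose by 0.17 ± 0.046 log2 per zone (adjusted p = 0.0038), and March8, a ubiquitin ligase that lowers surface class II, rose by 0.18 ± 0.038 (adjusted p = 5.1e-04). H2-DMb1, the partner chain of H2-DMa, had a slope of 0.058 ± 0.052 (adjusted p = 0.385; 0.0327 with the block). Like H2-DMa, H2-DMb1 rose over V1 to V4 by 0.26 log2 per zone with the block (adjusted p = 2.0e-05). It fell over V3 to V6 by 0.14 (adjusted p = 0.0299), also with the block. H2-DMb1 and H2-DMb2 are close copies, so their counts are uncertain.

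Genes of the interferon gamma response moved in both directions. Of 23 listed, 20 had counts and 14 were tested. Of these, 6 rose, 3 fell and 5 did not pass the test, where 22.1% of all genes rose and 22.8% fell. The median slope was 0.097 log2 per zone. Igtp, an interferon-induced GTPase, rose by 0.19 ± 0.036 log2 per zone (adjusted p = 1.8e-04), Jak2, a kinase of the interferon gamma receptor, by 0.23 ± 0.048 (4.8e-04), and Ifngr2, a chain of that receptor, by 0.10 ± 0.025 (0.00165). Gbp2, a guanylate-binding protein, fell by 0.43 ± 0.096 (adjusted p = 0.00103), and Ido1, the tryptophan-degrading enzyme, fell by 0.51 ± 0.12 (0.00233). Gbp2 had 98 UMIs in V1 and 20 in V6, and it did not pass the filter over V3 to V6. It entered the test through the bottom zones, where it is high, so its direction was largely set by the filter.

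MHC class I genes went in both directions, with the chain genes rising. Of 12 listed and tested, 5 rose, 2 fell and 5 did not pass the test, where 22.1% of all genes rose and 22.8% fell. The median slope was 0.059 log2 per zone. H2-K1 and H2-D1, the class I heavy chains, rose by 0.30 ± 0.050 (adjusted p = 3.8e-05) and 0.20 ± 0.032 log2 per zone (3.9e-05), and B2m, their light chain, by 0.24 ± 0.042 (7.9e-05). Pdia3, a chaperone of class I loading, fell by 0.14 ± 0.033 (adjusted p = 0.00209). The summed class I level had its highest mean in V4, at 9504 ± 2348 CPM, as the class II sum did at 3782 ± 1398 CPM (SD, n = 4). Over V3 to V6, with the block, H2-K1 rose by 0.16 ± 0.040 log2 per zone (adjusted p = 0.00872), where 6.79% of all genes were called higher.

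Markers of other cell types were read in the same libraries. All 10 goblet cell genes fell, and their sum was 74047 ± 25113 (V1), 37352 ± 14401 (V2), 11870 ± 5067 (V3), 11858 ± 1416 (V4), 11640 ± 2898 (V5) and 11598 ± 2958 CPM (V6; SD, n = 4). Of 10 enterocyte genes 9 rose and 1 was not called, and their sum moved from 17219 ± 6525 (V1) to 81988 ± 20278 (V4) and 84968 ± 13537 CPM (V6). From V1 to V3 the enterocyte sum rose, as the class II sum did, while the goblet sum fell. The part of these 2 cell types in the result was not tested. Of 6 crypt and dividing cell genes, 2 fell, and of 2 tested tuft cell genes, 1 rose (Trpm5). Over all genes tested, 22.1% rose and 22.8% fell.

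Markers of B cells, dendritic cells and macrophages, which carry class II molecules, had low counts apart from Lyz2. Of 11 B cell genes, 4 had counts, 122 UMIs in all, and none passed the filter; the summed level had means between 2.66 and 3.97 CPM. Of 21 dendritic cell and macrophage genes, 15 were analysed and 2 passed the filter, Lyz2 and Cx3cr1, neither of which was called (adjusted p = 0.850 and 0.108), and Cd209a was at 0. With the mouse as a block Cx3cr1 fell by 0.12 ± 0.050 log2 per zone (adjusted p = 0.0439), and over V1 to V4 by 0.28 ± 0.10 (adjusted p = 0.0206). Lyz2 held 4673 UMIs, and without it the summed level was 18.6 ± 0.780 (V1), 19.7 ± 2.76 (V2), 19.9 ± 4.10 (V3), 19.9 ± 7.14 (V4), 21.6 ± 3.77 (V5) and 32.1 ± 0.771 CPM (V6; SD, n = 4). The libraries of V1 and V4 overlapped in this sum, and the summed class II level was 1392 ± 328 and 3782 ± 1398 CPM in these zones. Without Cx3cr1 as well, the sum moved from 4.94 ± 1.26 (V1) to 12.6 ± 4.63 (V4) and 21.3 ± 3.53 CPM (V6). That smaller sum did not overlap between V1 (3.16 to 5.95 CPM, 34 UMIs) and V4 (6.50 to 17.6 CPM, 64 UMIs). The part of dendritic cells and macrophages in the result was not tested.

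The summed level of T cell and intraepithelial lymphocyte genes rose with the zones. Of 17 listed, 16 had counts and 5 were tested. All 5 rose (Ccl5, Nkg7, Gzma, Gzmb and Cd7), where 22.1% of all genes did, with a median slope of 0.65 log2 per zone. Nkg7, Gzmb and Cd7 did not pass the filter over V1 to V4 but passed it over V3 to V6. They entered the test through the zones where they are high, so their direction was largely set by the filter. The count of 5 is therefore not to be read against the share of all genes. The sum of the 16 genes was 31.1 ± 27.0 (V1), 115 ± 60.4 (V4) and 283 ± 23.6 CPM (V6, SD, n = 4). It ranged from 6.29 to 62.5 CPM among V1 libraries and from 266 to 318 CPM among V6 libraries. The sum was highest in V6, where the class II sum was below its V4 mean. The part of these cells in the result was not tested.

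**Figure D4:**
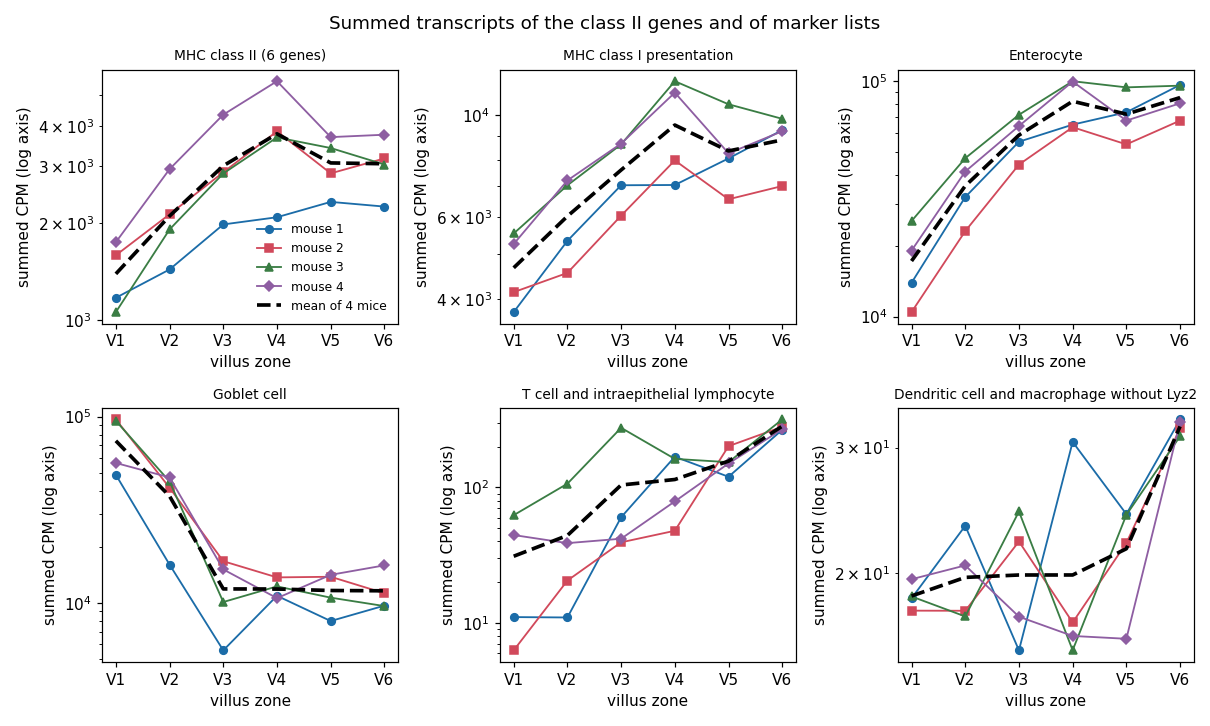
Summed CPM (log axes) of the 6 class II genes and of 5 marker lists against villus zone, with 1 line per mouse and a dashed line for the mean of 4 mice. The means of the class II, class I and enterocyte sums climb to V4, and the enterocyte mean is highest in V6, at 84968 CPM. The mean goblet sum drops from 74047 to 11870 CPM between V1 and V3, and the mean lymphocyte sum climbs to 283 CPM in V6.

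The genes most like the 6 in pattern were sought among 6473 tested genes of at least 10 CPM, by Pearson's r over the 24 libraries with the mean standardised log2 CPM of the class II genes. The 10 highest were Nudt5 (r = 0.927), Psmb8 (0.910), Ubd (0.903), Tap1 (0.878), Oit1 (0.871), Sptlc2 (0.855), Plb1 (0.850), Nr1i2 (0.847), Gpi1 (0.839) and Nos2 (0.830). Psmb8, a subunit of the immunoproteasome, and Tap1, a chain of the peptide transporter, belong to the class I list, and Ubd encodes the ubiquitin-like protein FAT10. Ubd rose by 0.50 ± 0.14 log2 per zone (adjusted p = 0.0076) and Nudt5 by 0.17 ± 0.033 (2.0e-04), while Psmb8 and Tap1 did not pass the test (adjusted p = 0.0546 and 0.184). Once the zone means were removed, the 5 highest were Nudt5 (r = 0.921), Ubd (0.873), Pgk1 (0.865), Tap1 (0.862) and Fabp6 (0.856), which describes differences between mice within a zone.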

How the data were processed

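The deposited counts are raw UMI numbers for each gene in 24 libraries, made from jejunal epithelium of 4 mice sorted into 6 zones. The genome build was GRCm38 and demultiplexing used bcl2fastq 2.15.0.4, per the submitters' processing notes, and zUMIs stands in the name of the deposited file. Aligner, annotation, strand setting and filters: not given in the sources used here. Library totals ranged from 806541 to 2266261 UMIs.

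The tests ran in edgeR 4.0.16 under R 4.3.3: filterByExpr by zone (minimum count 10, minimum total 15) left 9328 genes, libraries were scaled by TMM, and a quasi-likelihood model with 1 mean per zone (18 residual degrees of freedom) gave slope, V6 minus V1, curvature and steps. Zones count as equally spaced in the slope. A call is an adjusted p (Benjamini-Hochberg) under 0.05. Log2 CPM used a prior count of 2. The test was tried on simulated counts. Alternatives were mouse as a block (15 degrees of freedom), other scalings and filters, DESeq2 1.42.0, limma-voom (limma 3.58.1), leaving out mice or libraries, and other ranges of zones. Figures used matplotlib 3.10.9.

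The mouse number pairs libraries of the same animal: their deviations from the mean of a zone had an average r of 0.422 (lowest 0.184, above 0.1 in 60 of 60 pairs). No libraries were copies, since counts of a zone differed by at least 3.35 times the sampling noise (chi-square over its degrees of freedom, 36 pairs).

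The members and lists were chosen with earlier results of these data known. Named genes were the 6 members, from each list up to 4 tested genes with the smallest adjusted p and the one with the most counts, and the genes most like the members. From the lists, H2-DMb1, H2-Oa, H2-Eb2, Ctsh and Ido1 were named outside this rule, after their values were seen. A permutation test planned for members failing the filter was not needed, since all 6 passed. The 6 gene positions come from GENCODE M21 and promoters from RefSeq.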

Additional observations from a re-analysis of the deposited data

How the results depend on the processing

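The slopes of H2-Aa and H2-Ab1 stayed called under every scaling, filter and tool tried and without any mouse or library; they were not called over V2 to V6 or V3 to V6 without the block, nor over V3 to V6 with it. H2-Eb1 and Cd74 were near the threshold without the block. Scaling by total UMIs moved the median of all genes by -0.071 log2 per zone and by -0.33 for V6 minus V1. Relative to that median, the slopes were 0.32 for H2-Aa, 0.29 for H2-Ab1, 0.18 for H2-Eb1 and 0.15 for Cd74, but H2-Eb1 and Cd74 lost their calls (adjusted p = 0.120 and 0.222). Ciita rests on 130 UMIs, and what depth allows for it was not measured.

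Mouse as a replicate block changed the genes called as follows: curvature from 693 to 2039, V2 minus V1 from 141 to 1392, V3 minus V2 from 27 to 447, V4 minus V3 from 6 to 198 and V6 minus V5 from 25 to 140; members called went from 2 to 5 for curvature and from 0 to 3 for V2 minus V1 and V3 minus V2. For the slope over all zones, for V6 minus V1 and for the other steps, the block changed no member call. It moved members called from 0 to 4 over V2 to V6 (H2-Aa, H2-Ab1 and Cd74 higher, H2-DMa lower) and from 0 to 1 over V3 to V6 (H2-DMa lower). With it, no member's slope call changed when any mouse or library was left out (highest adjusted p of the 4 called, 0.00139).

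For the slope, 4189 genes were called, 1694 of at least 50 CPM, 1118 over V2 to V6 (2703 with the block) and 224 over V3 to V6 (662 with the block). Members called fell from 4 to 3 with no filter (H2-Eb1 lost, adjusted p = 0.0531), 2 with total UMIs, 0 over V2 to V6, 0 over V3 to V6 and 1 over V3 to V6 with the block. For V6 minus V1, 3619 genes became 1583 at 50 CPM, and 4 members became 2 with total UMIs, 2 without a filter, 3 with DESeq2 size factors and 3 at 50 CPM (Cd74 lost in all 4; H2-Eb1 also in the first 2). For curvature, 2 members became 0 with total UMIs, 1 without a filter, 4 at 50 CPM and 4 with DESeq2. DESeq2 called 309 genes for V2 minus V1, 102 for V3 minus V2, 55 for V4 minus V3 and 41 for V6 minus V5. The 50 CPM filter gave 49 for V3 minus V2 and 11 for V6 minus V5, and no filter gave 3 for V4 minus V3. V5 minus V4 had 0 throughout.

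Leaving out mice or libraries gave 2803 to 4358 genes and 2 to 4 members for the slope without the block, and 4324 to 5274 genes and 4 members with it. Leaving out mice gave 2240 to 3076 genes and 1 to 3 members for V6 minus V1, 261 to 577 genes and 0 to 3 members for curvature, 0 to 107 genes for V2 minus V1, 0 to 18 for V3 minus V2, 0 to 2 for V4 minus V3 and 13 to 26 for V6 minus V5. The slope changed sign over V3 to V6 for H2-Aa (-0.011), H2-Eb1 (-0.097; -0.081 with the block) and Cd74 (-0.019; -0.019 with the block), over V1 to V4 with the block for H2-DMa (0.16), and, uncalled, over V1 to V5 for H2-DMa (0.065, with and without the block) and over V2 to V6 with the block for Ciita (-0.0036). The uncalled slope of H2-DMa over all zones lay between -0.025 and 0.0089 when mice or libraries were left out without the block. The cause was not tested, beyond the fewer libraries in each such range.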
